A study of Homo sapiens with 24 samples.

Results

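MALAT1, TUG1, NORAD, KCNQ1OT1, MEG3, H19, PVT1 and CYTOR are genes studied mainly as long non-coding RNAs (lncRNAs), transcripts that act as RNA, although GENCODE 44 types TUG1 as protein-coding. These 8 genes were chosen by name, with earlier results of these data known. They make up 8 of the 58884 genes listed for RNA-seq of HEK293T cells, a human embryonic kidney cell line. RNA abundance was deposited as TPM, which expresses each transcript per length and per sum of the library, in 2 tables that were made separately, and all comparisons were made within a table. The first table held 2 libraries of wild-type cells (WT) and 2 of derived cells with both SETD2 alleles disrupted (KO), all labelled untreated. The second held 2 KO libraries, 2 of KO cells carrying full-length SETD2 (SETD2 FL, residues 1 to 2564) and another 2 carrying a fragment without the N-terminal region (SETD2 C, residues 1404 to 2564). SETD2 is the enzyme that places the trimethyl mark on lysine 36 of histone H3 along transcribed genes, and the study asked how its accumulation changes the transcriptome. Both constructs were tagged, driven by the CMV promoter and transfected into the KO cells, with RNA isolated after 72 h, whereas the KO libraries are labelled untreated. Transfection itself and the construct can therefore not be told apart against KO, and the comparison of SETD2 C with SETD2 FL has a transfected group on both sides. Whether the KO cells were 1 clone, and whether replicate libraries came from separate cultures, is not stated, so that p-values measure only the spread between these samples.

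Among the 10 libraries, 24306 to 27104 genes had a TPM above 0, with the highest counts in SETD2 C, and since TPM hides the number of reads, the depth is unknown. The SETD2 transcript did not check the KO label, with SETD2 at 12.6 and 14.8 TPM in the libraries labelled WT and at 16.2 and 16.3 TPM in those labelled KO. The direction of each difference between them is as labelled. SETD2 in the second table was at 12.0 to 12.2 TPM in KO, rose to 439 and 422 TPM in SETD2 FL libraries, and reached 1329 and 1264 TPM under SETD2 C. TPM is per length and the constructs differ in length, so these values may not give the ratio of construct transcripts. Between SETD2 C and SETD2 FL, the amount of construct transcript and the absence of the N-terminal region cannot be told apart. All 7 markers of the line were present, with VIM at 444 TPM or more and LHX1, the lowest, at 0.62 TPM or more in every library. Of the leukocyte markers, PTPRC reached 0.02 TPM and CD3E 0.05 TPM, whereas LST1 was at 0.11 to 0.33 TPM in the first table and 0.48 to 1.58 TPM in the second. Of those of endothelium, CDH5 reached 0.03 TPM, PECAM1 0.17 TPM and VWF 0.2 TPM. Of those of fibroblasts, COL1A2 reached 0.01 TPM and DCN 0.43 TPM, with COL1A1 at 6.43 to 12.1 TPM, and of those of liver, TTR reached 0.06 TPM, ALB 0.38 TPM and APOA2 0.93 TPM. TPM values are given as deposited unless called scaled. In bulk RNA, fewer cells that express a gene and less RNA per cell cannot be told apart.

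Most lncRNAs are transcribed by RNA polymerase II like mRNAs, and many remain in the nucleus, where they are held at chromatin or in nuclear bodies. MALAT1 localises to nuclear speckles, the storage sites of splicing factors, and its gene lies beside NEAT1, whose RNA builds the paraspeckles. TUG1 and NORAD are broadly expressed, and NORAD is a cytoplasmic RNA that sequesters Pumilio proteins. KCNQ1OT1, MEG3 and H19 are transcribed from imprinted loci, at which only 1 parental allele is active. PVT1 lies downstream of MYC, and CYTOR is a cytoplasmic and nuclear RNA with a near-identical copy elsewhere on the same chromosome.

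MALAT1 (ENSG00000251562) is located at positions 65497640 to 65508073 of chromosome 11 (GRCh38, plus strand), and its reference transcript is a single exon of 10434 nucleotides. NORAD (ENSG00000260032) is likewise a single exon, of 5401 nucleotides, on chromosome 20 from 36045618 to 36051018 on the minus strand. TUG1 (ENSG00000253352) spans chromosome 22 from 30969245 to 30979395 on the plus strand with 3 exons and 7474 nucleotides in its reference transcript. H19 (ENSG00000130600) lies on chromosome 11 from 1995166 to 2004552 on the minus strand and contains MIR675, and KCNQ1OT1 (ENSG00000269821) lies on the same chromosome from 2597308 to 2700003 on the minus strand, antisense within KCNQ1. MEG3 (ENSG00000214548) is at chromosome 14 from 100779410 to 100861031 and CYTOR (ENSG00000222041) at chromosome 2 from 87454781 to 87636740, both on the plus strand. The position of PVT1 is given with its values. The use of strand in counting is not stated, so reads of KCNQ1OT1 and KCNQ1, and of MALAT1 and its antisense transcript TALAM1, may be mixed.

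Libraries were made after ribosomal RNA depletion and poly(A) enrichment, which bears on MALAT1, since the 3′ end of this RNA is produced by cleavage and carries no added poly(A) tail but an A-rich tract encoded in the genome. The tract is shown because the preparation selected RNA with A-rich ends, and the effect of that step on the MALAT1 values was not tested. The tract was the longest run of A in the reference transcript, with 13 in a row against 8 for the next longest, starting at nucleotide 8459. In the sequence below, from GRCh38, the tract is in capitals, 17 of whose 19 bases are A.
MALAT1 3′ end (chr11:65506017-65506116, plus strand): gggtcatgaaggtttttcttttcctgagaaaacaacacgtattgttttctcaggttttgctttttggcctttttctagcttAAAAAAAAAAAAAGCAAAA

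NORAD is known for its many binding sites for Pumilio proteins, which repress the mRNAs they bind, and some of these sites are shown for that reason. The Pumilio response element (TGTANATA, where N is any base, searched on the transcript strand) occurred 15 times in NORAD, or 2.78 per kilobase, against 2 times in the longest transcript of TUG1, 9 times in that of KCNQ1OT1 (0.098 per kilobase) and 1 time in that of MEG3. It was not found in MALAT1, H19, PVT1 or CYTOR. The first 3 of the 15 elements along NORAD are given with their flanks, with the element in capitals.
NORAD element at nucleotide 819 (chr20:36050186-36050207, minus strand): aggcctgTGTATATAatatgaa
NORAD element at nucleotide 1198 (chr20:36049807-36049828, minus strand): actactgTGTATATAgttgaca
NORAD element at nucleotide 1299 (chr20:36049706-36049727, minus strand): cacatttTGTAAATAccttttt

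RefSeq promoter windows of 300 bases were found for 6 of the 8 genes. Those of MALAT1, TUG1 and NORAD are shown as examples of abundant members that were higher with SETD2 C. CYTOR was also abundant and higher, and its window is not shown. Capitals mark ACGTG or GCGTG on either strand, the core of the hypoxia response element, of which ACGTG is also part of the E-box CACGTG that MYC family proteins bind. Of all 35116 windows, 48.4% held at least 1 match.
MALAT1 (chr11:65497488-65497787, plus strand): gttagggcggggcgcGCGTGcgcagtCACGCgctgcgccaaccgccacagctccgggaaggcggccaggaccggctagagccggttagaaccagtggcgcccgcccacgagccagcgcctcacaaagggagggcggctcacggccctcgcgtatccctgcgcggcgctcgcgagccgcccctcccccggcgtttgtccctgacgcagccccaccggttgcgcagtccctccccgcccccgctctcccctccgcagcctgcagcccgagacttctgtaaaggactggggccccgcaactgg
TUG1 (chr22:30969015-30969314, plus strand): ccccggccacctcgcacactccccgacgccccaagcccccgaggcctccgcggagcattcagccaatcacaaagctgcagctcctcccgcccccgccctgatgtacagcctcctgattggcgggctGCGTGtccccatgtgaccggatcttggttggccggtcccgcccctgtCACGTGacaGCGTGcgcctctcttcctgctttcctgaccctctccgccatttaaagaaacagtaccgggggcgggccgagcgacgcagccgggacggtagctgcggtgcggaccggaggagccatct
NORAD (chr20:36050911-36051210, minus strand): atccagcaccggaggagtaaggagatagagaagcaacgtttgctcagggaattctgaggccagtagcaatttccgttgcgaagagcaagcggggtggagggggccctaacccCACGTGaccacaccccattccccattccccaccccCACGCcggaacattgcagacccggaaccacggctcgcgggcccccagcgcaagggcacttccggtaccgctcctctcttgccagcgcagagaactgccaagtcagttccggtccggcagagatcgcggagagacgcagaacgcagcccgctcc
The MALAT1 window had 2 matches, the TUG1 window 4 and the NORAD window 3, where CACGTG in TUG1 and NORAD counts on both strands. The windows of H19 and CYTOR had 0, the MEG3 windows had 1, 1 and 0, and a second, downstream window of MALAT1 had 1. CCAAT (34.6% of all windows, both strands) was present 2 times in TUG1 and 1 time in CYTOR and in each MEG3 window. TATAAA (11.5%) was present in that second window of MALAT1 and in the MEG3 windows. TGACGTCA, the cAMP response element (1.85%), was found in MEG3 and in none of the other windows of these genes. A match describes the letters and is not a measured binding site.

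The 8 genes covered a range of levels from absent to among the most abundant lncRNAs. Among KO cells of the second table NORAD was the highest, at 55.55 and 53.69 TPM, followed by TUG1 at 39.9 and 36.8 TPM. MALAT1 (38.0 and 29.5 TPM), CYTOR (33.8 and 30.3 TPM) and PVT1 (27.9 and 30.5 TPM) came next, and the values of MALAT1 overlapped those of TUG1 and CYTOR. H19 was far lower, at 1.13 and 0.62 TPM, and KCNQ1OT1 (0.06 and 0.05 TPM) and MEG3 (listed at 0 in both) were at or near 0. A filter of 0.5 TPM in at least 2 libraries left 6 of the 8 genes for testing, all of which had 0.5 TPM or more in every library. KCNQ1OT1 and MEG3 did not pass.

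**Figure D1:**
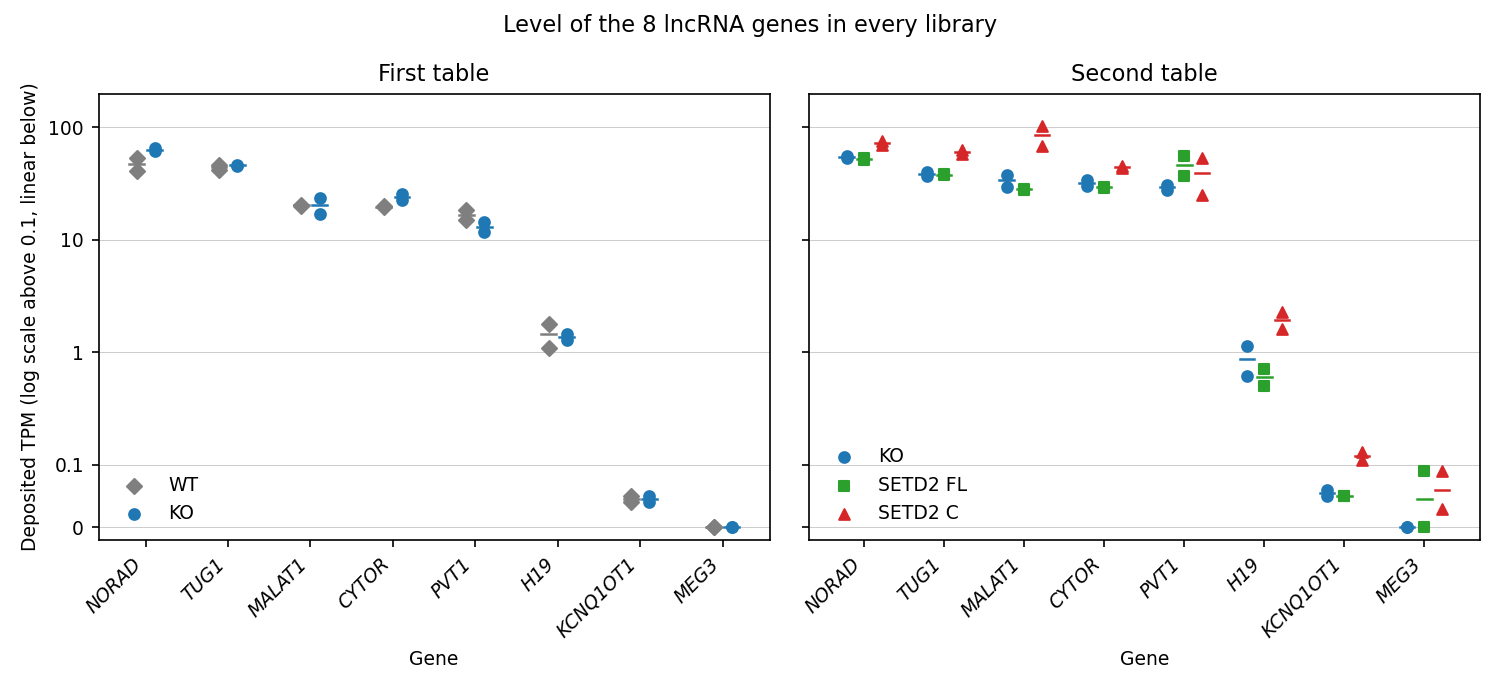
Deposited TPM of the 8 lncRNA genes in every library of the first table (WT and KO) and the second table (KO, SETD2 FL and SETD2 C), on a log scale above 0.1 TPM and a linear scale below it, where each point is 1 library and each line the group mean. In the second table both SETD2 C libraries of MALAT1 (68.3 and 103 TPM) lie above all KO and SETD2 FL libraries, and the replicates of PVT1 lie apart in both transfected groups.

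MALAT1 was higher with SETD2 C than in both other groups of the second table. Across all genes, TPM was scaled by the median ratio between libraries and tested as log2(scaled TPM + 0.5) with limma, and a call needed a 2-fold or larger change together with an adjusted p (Benjamini-Hochberg) no higher than 0.05. Fold changes are on that log2 scale, which understates changes of low genes. On it MALAT1 had the largest fold change of the 6 tested members in both SETD2 C comparisons, but against SETD2 FL the order turned at a pseudocount of 0.01 without a filter, with log2 1.55 for H19 and 1.45 for MALAT1. Against KO, MALAT1 alone of the 6 tested members was called higher, where 3.75% of the 15929 tested genes and 7.81% of the 2510 tested genes of lncRNA type were. By the adjusted p alone, 5 of 6 were higher, where 21.1% of all tested genes and 31% of lncRNAs were. Both SETD2 C libraries lay above both KO libraries in deposited TPM for 5 of the 6, as they did for 57.1% of all tested genes. Against SETD2 FL, MALAT1 and H19 were called higher (3.36% of all tested genes and 9.44% of lncRNAs), and 5 of the 6 were higher at the adjusted p alone (21.4% of all and 34.3% of lncRNAs). Both SETD2 C libraries were above both SETD2 FL libraries for 5 members and for 52.9% of tested genes. These comparisons share the SETD2 C libraries. The shares over all tested genes and lncRNAs include genes that passed the filter only through those libraries.

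MALAT1 was at 38.0 and 29.5 TPM in KO, 28.4 and 27.8 TPM with SETD2 FL and 68.3 and 103 TPM with SETD2 C. The SETD2 C libraries were above the other 4 without overlap, and they differed from each other more than the libraries of the other groups did. The mean was 85.8 ± 24.8 TPM (SD, n = 2) with SETD2 C, against 33.8 ± 5.98 TPM in KO and 28.1 ± 0.375 TPM with SETD2 FL. The fold change against KO was 2.25 (log2 1.17, standard error 0.18, 95% confidence interval 0.75 to 1.58, adjusted p = 0.00253, limma with Benjamini-Hochberg adjustment). Against SETD2 FL it was 2.71 (log2 1.44, 95% confidence interval 1.02 to 1.85, adjusted p = 9.68e-04). In the distribution of log2 fold changes against KO, 97.55% of tested genes and 95.4% of tested lncRNAs were below MALAT1. The adjusted p was at most 0.05 in all 15 alternative analyses of each comparison, but the fold change of 2 against KO depended on single libraries, with a log2 fold change of 0.87 without SETD2 C replicate 2 and 0.99 without KO replicate 4. The rank of MALAT1 among lncRNAs, ordered by TPM, moved from 43 and 53 in KO and 56 in both SETD2 FL libraries to 30 and 19 with SETD2 C, and in the second SETD2 C library it exceeded NORAD, with a ratio of 1.36 where KO and SETD2 FL had 0.519 to 0.684.

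**Figure D2:**
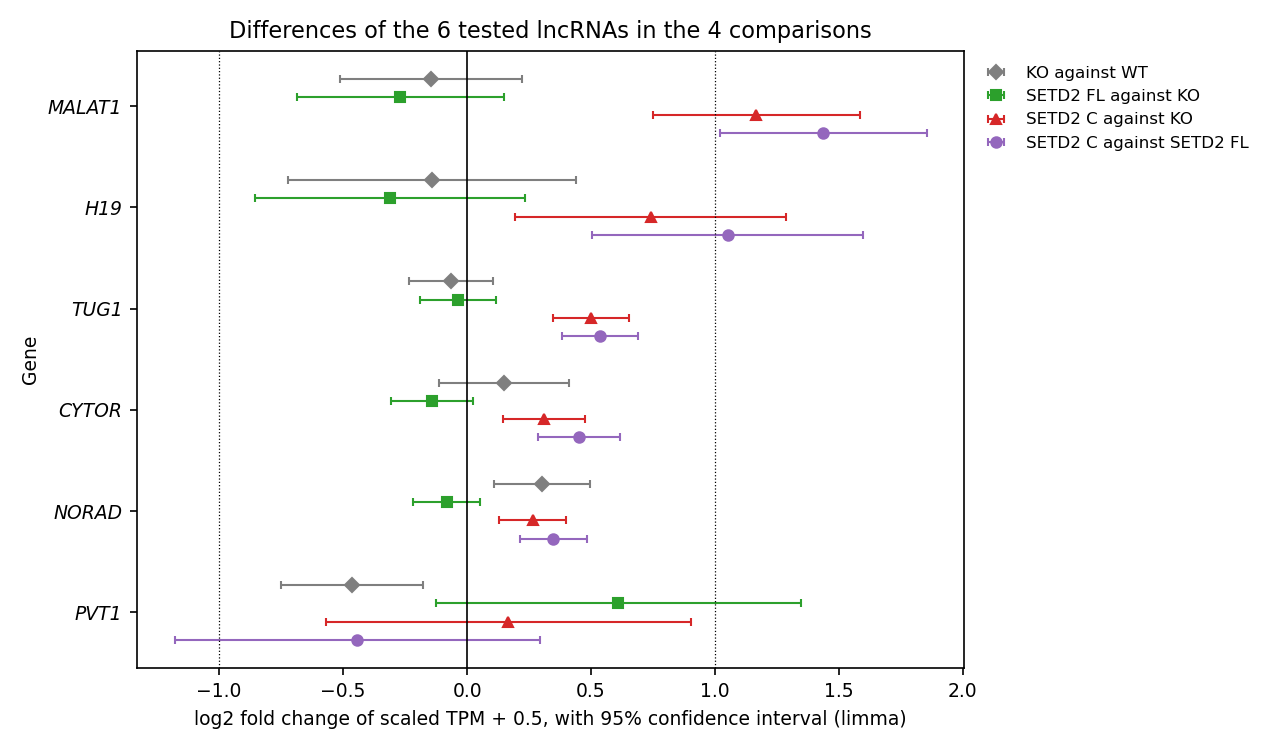
Log2 fold change with its 95% confidence interval (limma, horizontal axis) of the 6 tested lncRNAs, for KO against WT in the first table and the 3 comparisons of the second table, with dotted lines at a fold change of 2 in either direction. MALAT1 is at 1.17 and 1.44 in the SETD2 C comparisons, and every interval of KO against WT and of SETD2 FL against KO lies short of an increase of 1 except that of PVT1 with SETD2 FL, which reaches 1.35.

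Genes tied to MALAT1 moved in both directions. NEAT1, its neighbour and the scaffold of paraspeckles, was at 110 and 112 TPM in KO, 121 and 117 TPM with SETD2 FL and 578 and 758 TPM with SETD2 C. Its log2 fold change against KO was 2.43 (standard error 0.11, adjusted p = 1.04e-05, limma), above that of MALAT1. SRSF1, a splicing factor that binds MALAT1, rose by less, with a log2 fold change of 0.53 (adjusted p = 0.0036), from 188 and 164 TPM to 258 and 307.5 TPM. The nearby protein-coding gene FRMD8 was lower (log2 -0.32, adjusted p = 0.0128). The nuclease gene ELAC2 fell by 0.42 on the log2 scale (adjusted p = 0.0066, limma). METTL16, a methyltransferase that binds the triple helix formed by the MALAT1 3′ end, fell by 0.30 (adjusted p = 0.0194). TALAM1 was not analysed here.

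**Figure D3:**
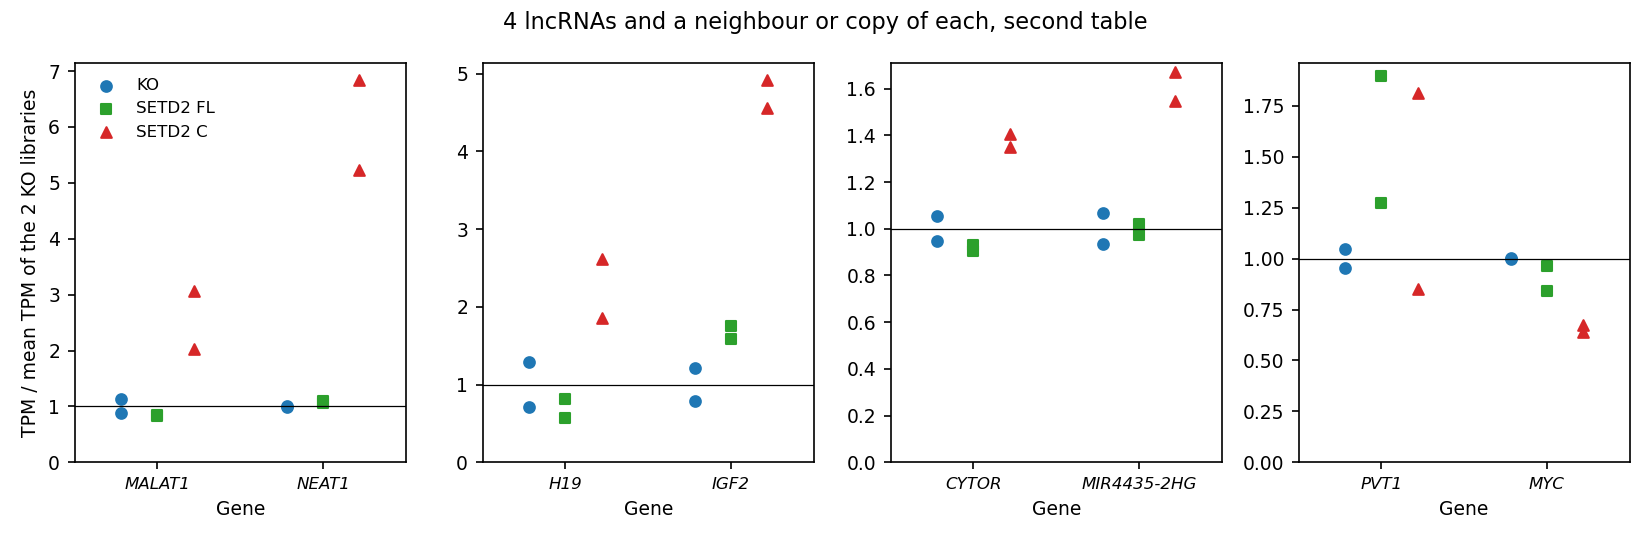
TPM relative to the mean of the 2 KO libraries (vertical axis, starting at 0) for MALAT1, H19, CYTOR and PVT1, each beside a neighbouring gene or copy, with 2 libraries per group of the second table. NEAT1, IGF2 and MIR4435-2HG are higher in both SETD2 C libraries, as are MALAT1, H19 and CYTOR, whereas MYC is lower in both and PVT1 is spread around 1.

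TUG1, an RNA found in both the nucleus and the cytoplasm, was at 39.9 and 36.8 TPM in KO, 38.3 and 37.4 TPM with SETD2 FL and 58.1 and 62.3 TPM with SETD2 C. The first 2 groups overlapped and SETD2 C lay above both. It rose with SETD2 C by a fold of 1.41 against KO (log2 0.50, standard error 0.07, adjusted p = 0.00143, limma) and 1.45 against SETD2 FL (log2 0.54, adjusted p = 9.22e-04), and both adjusted p-values were at most 0.05 in all 15 alternative analyses. The adjacent MORC2, which encodes a silencing ATPase, gave 21.9 and 23.3 TPM in KO and 26.9 and 24.7 TPM with SETD2 C, with a log2 fold change of 0.04 (95% confidence interval -0.14 to 0.22, adjusted p = 0.693).

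NORAD was at 55.55 and 53.69 TPM in KO, 51.0 and 53.6 TPM with SETD2 FL and 69.8 and 76.0 TPM with SETD2 C. SETD2 C was again higher than both other groups without overlap, but by less. The fold was 1.2 against KO (log2 0.27, standard error 0.06, adjusted p = 0.0107, limma) and 1.27 against SETD2 FL (log2 0.35, adjusted p = 0.00315). Among tested lncRNAs, 45% had a lower log2 fold change against KO than NORAD, and its rank by TPM stayed between 26 and 29 in all 6 libraries. The increase against KO did not pass without SETD2 C replicate 2 (adjusted p = 0.0752) or without KO replicate 4 (adjusted p = 0.0562). PUM2, whose protein binds the elements shown above, gave a log2 fold change against KO of 0.01 (adjusted p = 0.901). RBMX and KHDRBS1, RNA-binding proteins known to associate with NORAD, gave -0.16 (adjusted p = 0.0557) and 0.02 (adjusted p = 0.785).

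H19, an imprinted growth-restraining RNA and host of miR-675, was at 1.13 and 0.62 TPM in KO, 0.71 and 0.50 TPM with SETD2 FL and 1.62 and 2.29 TPM with SETD2 C. The SETD2 C libraries were the highest, at levels that remained low. The fold was 2.07 against SETD2 FL (log2 1.05, standard error 0.24, adjusted p = 0.0106, limma) and 1.67 against KO (log2 0.74, adjusted p = 0.0417). Against KO the adjusted p was at most 0.05 in only 5 of 14 alternative analyses (range 0.0152 to 0.229), and with quantile normalization the log2 fold change was 0.42 (adjusted p = 0.193). Against SETD2 FL the fold fell short of 2 with quantile normalization (log2 0.77) and with a pseudocount of 1 (log2 0.80), and the adjusted p was not past 0.05 without SETD2 FL replicate 4 (adjusted p = 0.0567) or without SETD2 C replicate 2 (adjusted p = 0.0793). IGF2, the growth factor gene that shares enhancers with H19 and is expressed from the other allele, rose from 0.67 and 0.44 TPM in KO to 2.73 and 2.53 TPM with SETD2 C (log2 1.47, standard error 0.17, adjusted p = 7.92e-04), with 0.97 and 0.88 TPM in SETD2 FL. CTCF, which insulates the locus, had a log2 fold change of -0.16 against KO (adjusted p = 0.0979) and was lower than with SETD2 FL (log2 -0.24, adjusted p = 0.027), and MIR675 was listed at 0 in every library.

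CYTOR was at 33.8 and 30.3 TPM in KO, 29.8 and 28.9 TPM with SETD2 FL and 44.97 and 43.22 TPM with SETD2 C. All SETD2 C values exceeded those of the other groups. The fold was 1.24 against KO (log2 0.31, standard error 0.07, adjusted p = 0.0126, limma) and 1.37 against SETD2 FL (log2 0.45, adjusted p = 0.0024), and the former was not past 0.05 without KO replicate 4 (adjusted p = 0.0741) or without SETD2 C replicate 1 (adjusted p = 0.0669). Its copy MIR4435-2HG gave 17.3 and 19.8 TPM in KO and 28.71 and 30.99 TPM with SETD2 C (log2 0.53, adjusted p = 0.00261). The reference transcript of CYTOR aligned to a MIR4435-2HG transcript over 638 bases with 99.5% identity, or 62.55% of its length, and all 39 annotated CYTOR transcripts had a stretch of at least 75 bases at 98% identity or more. Reads in such stretches fit both genes, so the division between CYTOR and MIR4435-2HG is uncertain, although both were higher and their ratio was 1.40 and 1.57 with SETD2 C and 1.53 to 1.95 in KO and SETD2 FL.

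PVT1 (ENSG00000249859), on the plus strand of chromosome 8 from 127794526 to 128187101 with 190 annotated transcripts, was the exception. It was at 27.9 and 30.5 TPM in KO, 55.4 and 37.2 TPM with SETD2 FL and 24.9 and 53.0 TPM with SETD2 C. The SETD2 C libraries lay on either side of both KO libraries, and the 2 transfected groups overlapped. The log2 fold change was 0.17 against KO (95% confidence interval -0.57 to 0.90, adjusted p = 0.715, limma) and -0.44 against SETD2 FL (95% confidence interval -1.18 to 0.29, adjusted p = 0.301). The sign against KO turned to -0.37 without SETD2 C replicate 2, and the sign against SETD2 FL turned to 0.09 without SETD2 C replicate 1. Without SETD2 C replicate 2 the value against SETD2 FL was -0.98 and rested on 1 SETD2 C library, so no difference is read from it. The adjacent oncogene MYC showed no such spread, at 290 and 292 TPM in KO, 244 and 281 TPM with SETD2 FL and 196 and 186 TPM with SETD2 C, and it was lower than in KO by 0.76 on the log2 scale (log2 -0.76, standard error 0.06, adjusted p = 2.02e-04).

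KCNQ1OT1, the antisense RNA that silences its imprinted domain in cis, was listed at 0.06 and 0.05 TPM in KO, 0.05 in both SETD2 FL libraries and 0.11 and 0.13 TPM with SETD2 C. The SETD2 C libraries were higher, at a level where the test had no value after the filter, and with the filter removed the log2 fold change against KO was 0.14 (adjusted p = 0.128, limma). The pseudocount of 0.5 exceeded all these KCNQ1OT1 values, which compresses that fold change. Of the genes of its domain, KCNQ1 gave 1.05 and 1.0 TPM in KO and 1.02 and 1.10 TPM with SETD2 C (log2 -0.07, adjusted p = 0.756). PHLDA2 was higher (log2 0.33, adjusted p = 0.0448) and SLC22A18 lower (log2 -0.36, adjusted p = 0.0431), while the growth inhibitor CDKN1C (log2 0.12, adjusted p = 0.418) and NAP1L4 (log2 0.08, adjusted p = 0.333) did not pass. Against SETD2 FL it was CDKN1C that was higher (log2 0.51, adjusted p = 0.00967), and PHLDA2 (log2 0.26, adjusted p = 0.0924), SLC22A18 (log2 -0.17, adjusted p = 0.29), NAP1L4 (log2 0.18, adjusted p = 0.0554) and KCNQ1 (log2 -0.10, adjusted p = 0.643) did not pass. MEG3, an imprinted RNA of the DLK1 locus, was listed at 0 in 7 of the 10 libraries and reached 0.09 TPM, and DLK1, RTL1, MEG8 and MEG9 of the same locus did not pass the filter.

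Full-length SETD2 gave no call among the 6 members, where 0.0816% of all tested genes were called, and none at the adjusted p alone, where 0.207% were (limma, 2536 genes at an unadjusted p under 0.05, of which 0 were members). MALAT1 had a log2 fold change of -0.27 (95% confidence interval -0.69 to 0.15, adjusted p = 0.501, limma). That of PVT1 was 0.61 (95% confidence interval -0.13 to 1.35, adjusted p = 0.394). NORAD (log2 -0.08), TUG1 (-0.04), CYTOR (-0.14) and H19 (-0.31) had adjusted p-values from 0.38 to 0.825, and the TUG1 value was 0.01 without KO replicate 2 or without SETD2 FL replicate 4. These intervals leave room for changes, H19 and PVT1 in particular having wide ones. The fit shares 1 estimate of the spread over all 6 libraries, so the intervals also carry the scatter between the SETD2 C libraries.

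In the first table no member was called between KO and WT (limma), where 1.36% of the 14741 tested genes were. None passed the adjusted p alone, where 4.48% did. An unadjusted p under 0.05 was reached by 2 members and by 3673 of all tested genes. MALAT1 was at 19.9 and 20.6 TPM in WT and 23.7 and 16.9 TPM in KO, so that the groups overlapped (log2 -0.15, 95% confidence interval -0.51 to 0.22, adjusted p = 0.593), and the sign turned without KO replicate 2 (log2 0.08). NORAD was at 41.2 and 53.0 TPM in WT and 61.2 and 65.2 TPM in KO (log2 0.30, 95% confidence interval 0.11 to 0.50, adjusted p = 0.0867). The lower of its WT values was in WT replicate 1, where mitochondrially encoded protein genes held 22.6% of TPM, against 13.8% in WT replicate 2 and 11.8% and 12.2% in KO. Without WT replicate 1 the log2 fold change of NORAD was 0.24 (adjusted p = 0.231), and after rescaling without the mitochondrial genes and SETD2 it was again 0.30 (adjusted p = 0.0877). PVT1 went the other way, at 15.2 and 18.3 TPM in WT and 11.7 and 14.6 TPM in KO (log2 -0.46, 95% confidence interval -0.75 to -0.18, adjusted p = 0.0792). TUG1 was at 41.5 and 46.6 TPM in WT and 46.6 and 45.4 TPM in KO (log2 -0.07, but 0.06 without scaling). CYTOR was at 19.7 and 19.9 TPM in WT and 22.7 and 25.6 TPM in KO (log2 0.15, adjusted p = 0.433). H19 was at 1.79 and 1.10 TPM in WT and 1.45 and 1.28 TPM in KO (log2 -0.14, adjusted p = 0.759, but 0.21 without WT replicate 1), KCNQ1OT1 at 0.04 to 0.05 TPM and MEG3 listed at 0 throughout. Of their neighbours and partners, CDKN1C was the 1 of 20 tested that passed the adjusted p, at 2.00 and 2.52 TPM in WT and 4.02 and 3.92 TPM in KO (log2 0.59, adjusted p = 0.046).

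Tested lncRNAs as a set were also shifted to higher values with SETD2 C. This set includes genes that passed the filter only through the SETD2 C libraries. The medians and the share of lncRNAs above 0 given here were not recomputed without those genes. The 6 members had a median log2 fold change of 0.40 against KO, set beside 0.05 over all tested genes and 0.32 over the 2510 lncRNAs, of which 75.1% were above 0. Against SETD2 FL the medians were 0.49 for the members, 0.04 for all genes and 0.36 for lncRNAs. For SETD2 FL against KO the medians were -0.11, 0.01 and -0.05, and for KO against WT -0.10, -0.01 and -0.10. The part of the library's TPM held by lncRNAs was 1.475% and 1.466% in KO, 1.33% in both SETD2 FL libraries and 1.98% and 2.07% with SETD2 C. The part held by mitochondrially encoded protein genes fell with SETD2 C, to 2.44% and 2.78%, from 6.73% and 5.88% in KO and 10.4% and 7.43% with SETD2 FL. After rescaling without these mitochondrial genes and SETD2, the log2 fold change of MALAT1 against KO was again 1.17.

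**Figure D4:**
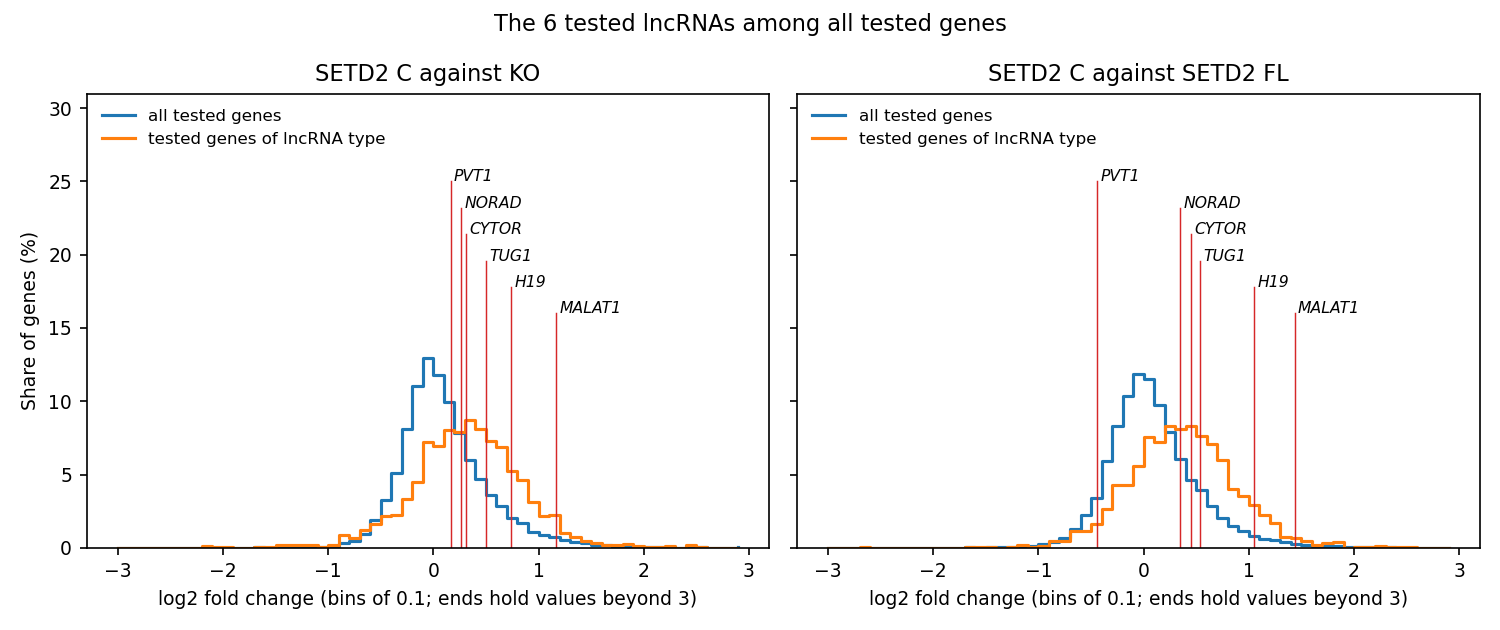
Share of genes (vertical axis, percent) by log2 fold change (horizontal axis, bins of 0.1) for all tested genes and for tested genes of lncRNA type, for SETD2 C against KO and against SETD2 FL, with red lines at the 6 tested lncRNAs. The lncRNA curve is shifted to higher values, with medians of 0.32 and 0.36 against 0.05 and 0.04 for all genes, and MALAT1 lies at the right side of both curves. Both curves include genes that passed the filter only through the SETD2 C libraries.

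Of 45 other well-studied lncRNAs, 41 were listed and 26 tested in the second table. LUCAT1, a stress-induced lncRNA at 0.09 and 0 TPM in KO, 0.11 and 0 TPM with SETD2 FL and 0.78 and 0.60 TPM with SETD2 C, passed the filter only through the SETD2 C libraries and is left out of the counts against KO and SETD2 FL that follow. Of the other 25, NEAT1 was the 1 called against KO, and by the adjusted p alone 12 were higher and 2 lower (limma), with a median log2 fold change of 0.28. Over all tested genes 3.75% were called higher (7.81% of lncRNAs), and by the adjusted p alone 21.1% were higher (31% of lncRNAs) and 15.1% lower. These shares, and those against SETD2 FL below, still include genes that, like LUCAT1, passed only through the SETD2 C libraries. Against SETD2 FL 2 were called, NEAT1 and HOTTIP of the HOXA cluster, which was at 0.42 and 0.28 TPM with SETD2 FL and 1.32 and 1.68 TPM with SETD2 C (log2 1.15, adjusted p = 0.00281). By the adjusted p alone 14 were higher and 1 lower, the latter MIR17HG, the host of the miR-17-92 microRNAs (log2 -0.37, adjusted p = 0.0268). Among all tested genes 3.36% were called higher (9.44% of lncRNAs), and by the adjusted p alone 21.4% were higher (34.3% of lncRNAs) and 16.8% lower. Between WT and KO, 0 of 25 were called (1.36% of all tested genes) and 2 passed the adjusted p (4.48% of all), both lower in KO, SNHG1 (log2 -0.43, adjusted p = 0.0495) and PAXIP1-AS1 (log2 -0.61, adjusted p = 0.047). With SETD2 FL against KO, 0 of 26 were called (0.0816% of all) and 1 passed the adjusted p (0.207% of all), HOTAIRM1, which was lower (log2 -0.37, adjusted p = 0.0436). MIR17HG, SNHG1, PAXIP1-AS1 and HOTAIRM1 were named after their values were seen. An unadjusted p under 0.05 (limma) was reached by 9 of the 25 in the first table and by 3673 of all 14741 tested genes. With SETD2 FL against KO it was reached by 10 of the 26 and by 2536 of all 15929.

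Of the 20 tested neighbour and partner genes, 2 were called higher with SETD2 C against KO (3.75% of all tested genes) and 0 lower (50 of all 15929). By the adjusted p alone 5 rose (21.1% of all) and 6 fell (15.1% of all), with a median log2 fold change of 0.02. Against SETD2 FL 2 were called higher (3.36% of all) and 0 lower (67 of all 15929). By the adjusted p alone 5 were higher (21.4%) and 5 lower (16.8%), with a median of -0.02. The 2 called in each were NEAT1 and IGF2, and NEAT1 is also counted among the other well-studied lncRNAs above. With SETD2 FL against KO, 0 of the 20 neighbours and 0 of the 24 decay genes described next passed the adjusted p, where 0.207% of all tested genes did. An unadjusted p under 0.05 (limma) was reached by 4 of the former, 1 of the latter and 2536 of all 15929 tested genes. The nuclear RNA decay machinery, which removes many unstable nuclear RNAs, was measured through 24 genes of the exosome, its adaptors and the cap-binding complex. None was called with SETD2 C against KO (limma), where 3.75% of all tested genes were called higher. An unadjusted p under 0.05 was reached by 10 of the 24 and by 7497 of all 15929 tested genes. By the adjusted p alone 0 rose (21.1% of all) and 7 fell (15.1% of all), with a median of -0.12. Against SETD2 FL, where 16.8% of all tested genes were lower, 1 was higher, the adaptor gene ZFC3H1 (log2 0.39, adjusted p = 0.0163), and 7 were lower, with EXOSC4, an exosome core subunit, at 42.8 and 44.8 TPM with SETD2 FL and 31.9 and 26.5 TPM with SETD2 C (log2 -0.71, adjusted p = 0.00104). Between WT and KO 0 of the 24 rose and 1 fell, ZCCHC8 (log2 -0.40, adjusted p = 0.0421, limma). Of all tested genes, 4.48% passed the adjusted p there in either direction. ZFC3H1, EXOSC4 and ZCCHC8 were singled out after their values were seen. Whether decay genes had a part in the levels of the lncRNAs was not tested.

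The genes whose pattern over the 6 libraries of the second table was nearest to that of MALAT1 were found by Euclidean distance of log2 values from each gene's KO mean, among 10208 genes with a mean of at least 5 TPM. The nearest was MT1X, a metallothionein that binds metals, at a distance of 0.365, with 60.0 and 51.6 TPM in KO, 49.0 and 52.8 TPM with SETD2 FL and 132 and 150 TPM with SETD2 C. ZNF436-AS1 (distance 0.375), an antisense lncRNA, and FEM1C (0.401), a substrate receptor of a ubiquitin ligase, followed. MIR222HG (0.405), the host transcript of the miR-221 and miR-222 microRNAs, went from 33.8 and 25.5 TPM in KO and 22.9 and 24.9 TPM with SETD2 FL to 52.6 and 71.6 TPM with SETD2 C. NRN1 (0.442), a neuronal growth protein, completed the 5. All 5 had, like MALAT1, a higher TPM in the second SETD2 C library than in the first. The choice by distance over these same libraries favours that trait, so it is no separate result. The order describes these 6 libraries and was not tested.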

How the data were processed

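HEK293T RNA-seq libraries, 10 in all, were analysed, 2 per group in each of 2 tables. Per the labels, reads were converted with bcl2fastq 2.18, aligned with STAR 2.6.1c to hg38 with Ensembl 96, and quantified with RSEM 1.3.0, and the authors deposited TPM without normalization between libraries. TPM keeps no read count, so no counting error can be given. The ChIP-seq samples were not analysed here. Positions came from GENCODE 44 on GRCh38 (58472 identifiers matched, 18 by symbol, 394 not at all).

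Libraries were brought to a common level by their median ratio across genes that reached a TPM of 1 in all libraries. Genes of protein-coding or lncRNA type whose TPM was 0.5 or more in 2 or more libraries were tested on the log2(scaled TPM + 0.5) scale, using limma 3.58.1 under R 4.3.3 (eBayes with trend), with 1 fit per table and Benjamini-Hochberg adjustment over 14741 or 15929 genes. A call needed a 2-fold or larger change together with an adjusted p no higher than 0.05. An exact permutation test of 2 against 2 libraries cannot go below p = 0.333 and was not used. The procedure was tested on simulated data. Promoter windows are from RefSeq (GRCh38.p14) and transcripts were compared with BLAST 2.17.0.

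The members and lists were chosen with earlier results of these data known. All 8 members were named, with the called genes of each list (at most 4 per comparison), every tested neighbour or partner beside its member except 2 that are not reported here, and the 5 genes nearest to MALAT1. Alternatives covered pseudocounts, filters, scalings, the variance model, gene types, the libraries fitted, a replicate block and each library left out.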

Additional observations from a re-analysis of the deposited data

How the results depend on the processing

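Of 364 alternative values of the members' log2 fold changes, 339 kept their direction and their side of an adjusted p of 0.05, 15 were no longer past it, 3 came to pass it and 7 changed sign, none of which had been past it. Without scaling, TUG1 turned to 0.064 for KO against WT. The other 6 turned with 1 library left out, where the values ranged from -0.37 to 0.083 for MALAT1 (positive without KO replicate 2) and -0.49 to 0.21 for H19 (positive without WT replicate 1) in KO against WT, from -0.087 to 0.013 for TUG1 in SETD2 FL against KO (0.013 without KO replicate 2 and 0.0072 without SETD2 FL replicate 4), and for PVT1 from -0.37 to 0.699 in SETD2 C against KO (negative without SETD2 C replicate 2) and -0.98 to 0.089 in SETD2 C against SETD2 FL (positive without SETD2 C replicate 1). The cause was not tested. The members called with SETD2 C against KO were 1, and 5 at the adjusted p alone, and ranged from 0 to 2 with 1 library left out. Against SETD2 FL they were 2, and 1 with a pseudocount of 1, with at least 1 TPM in every library or with quantile normalization, 5 at the adjusted p alone and 1 to 2 with 1 library left out.

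The number of genes called was 200 for KO against WT, and 128 with a pseudocount of 1, 73 without a filter, 83 with at least 1 TPM in every library, 661 at the adjusted p alone, 95 without a filter at a pseudocount of 0.01 (an alternative chosen after seeing the data) and 122 to 214 with 1 library left out. For SETD2 FL against KO it was 13, and in the same order 7, 3, 6, 33, 2 and 2 to 6, with 21 without scaling, 6 with all gene types and 5 with only the groups compared. For SETD2 C against KO it was 647, and 1079 at a pseudocount of 0.1, 373 at 1, 301 with at least 1 TPM in every library, 5761 at the adjusted p alone, 1382 at a pseudocount of 0.01 without a filter and 518 to 703 with 1 library left out. For SETD2 C against SETD2 FL it was 603, and in that order 956, 362, 308, 6083, 1185 and 495 to 666. Quantile normalization moved the split of higher and lower calls from 597 and 50 to 342 and 130 against KO, and from 536 and 67 to 337 and 125 against SETD2 FL. Without scaling the median of all genes moved to 0.18 and 0.16 in these comparisons and to 0.11 for KO against WT.

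WT and KO share replicate numbers 1 and 2, but the labels do not say that a number marks a shared culture or day, and same-numbered libraries deviated together with a correlation of 0.147 over 14741 genes. With a replicate block 213 genes were called, and the adjusted p (limma) was 0.0429 for NORAD and 0.0434 for PVT1, at log2 fold changes of 0.30 and -0.46. Unknown depth limits what can be said of KCNQ1OT1, MEG3 and H19.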
